A study of Mus musculus with 6 samples.

Results

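Splicing factors and heterogeneous nuclear ribonucleoproteins (hnRNPs) are RNA-binding proteins that mark, cut and join the exons of pre-mRNA. Their genes were compared here between megakaryocyte progenitors (MkP), the blood precursors of the platelet lineage, from fetal liver and from adult bone marrow. Genes were chosen by a rule on their names, which was set with earlier results of these data known. The rule took the hnRNP (Hnrnp), SR protein (Srsf), SF3A and SF3B (Sf3a, Sf3b), snRNP protein (Snrp, letters a to g), U2AF (U2af), muscleblind-like (Mbnl) and CELF (Celf) families. Of 64 mouse protein-coding genes with such names in RefSeq, 58 had a probe set that carried their symbol alone, and 55 of these passed the filter on dim probe sets, among 11625 genes tested in all. Celf3 and Celf6 were not above background on any array, Srsf12 was above it on 1 array, and these 3 genes were not tested. Hnrnpa3, Snrpa, Snrpd1, Snrpd2, Srsf7 and Hnrnpa1l2-ps2 were not analysed here.

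The series held 6 Affymetrix arrays, 1 per sample. In both tissues the mice were wild type C57BL/6, and MkP were sorted by flow cytometry as cells that lacked lineage markers and Sca-1 and carried c-kit, CD150 and CD41. The bone marrow group came from adults of 12 to 18 weeks (3 arrays) and the fetal liver group from embryos at E13.5 (3 arrays). The labels name biological replicates but not how many animals each pooled, so p-values measure the spread between these samples. Age and organ differ together between the groups and cannot be told apart. The values are MAS5 signals on a linear scale. A signal counted as above background where it exceeded every bacterial control probe set of its array, and the top control lay at 22.2 to 35.1.

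The spliceosome assembles anew on each intron. The U1 snRNP binds the start of the intron, the U2AF dimer binds the pyrimidine tract and the AG at its end, and the U2 snRNP, which carries the SF3A and SF3B complexes, pairs with the branch point between them. SR proteins mostly promote the use of nearby exons, many hnRNPs oppose it, and MBNL and CELF proteins shift exon choice between fetal and adult patterns, as is best known from heart and skeletal muscle. In human myeloid neoplasms the genes for SF3B1, SRSF2 and U2AF1 are recurrent targets of mutation.

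Megakaryocyte markers were measured in both tissues. All 14 megakaryocyte markers tested were above background in both, with summed signals of 57170 to 62949 in marrow and 49303 to 59379 in fetal liver. Of these, 2 were higher in fetal liver, Clec1b (1.32, adjusted p = 0.0177 in limma) and Treml1 (0.89, 0.0377), and 6 had an unadjusted p under 0.05. The estimates went both ways, with 8 positive and 6 negative, from -1.01 to 1.32. In 5 of the 14 every fetal liver signal lay above every marrow signal (13.8% of all genes), and in 3 the reverse held (14.2%). Of the sort genes, Itga2b (which encodes CD41) had a log2 change of -0.64 (fetal liver minus bone marrow, adjusted p = 0.109 in limma), Kit -0.55 (0.384) and Slamf1 (CD150) 0.29 (0.671). Markers of other blood cells moved with the tissue. All 13 granulocyte markers tested were higher in marrow, with summed signals of 46362 to 72376 against 4852 to 6951, and 6 of the 16 with a probe set, among them Ltf and Lcn2, were not above background on any fetal liver array. For macrophage markers, 3 of 7 were higher in marrow (2142 to 4116 against 439 to 758), while 5 of 13 erythroid markers (29099 to 44458 against 21282 to 26391) and 1 of 5 hepatocyte markers (677 to 3757 against 302 to 721) were higher in fetal liver. None of the 3 lymphoid markers tested passed (802 to 1077 against 428 to 622), with 1 at an unadjusted p under 0.05. In fetal liver 4 of 12 macrophage markers (Adgre1, C1qa, C1qc and Cd163) and 8 of 13 lymphoid markers were not above background on any array, and in each tissue 5 of 11 hepatocyte markers. In marrow 4 of 15 erythroid markers were not above background on any array, and in fetal liver 1. In sorted bulk samples, fewer cells of a type and less RNA per cell cannot be told apart, and the part of these cell types in the results on splicing genes was not tested.

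No splicing factor or hnRNP gene passed the test at the level of its brightest probe set. In limma with Benjamini-Hochberg adjustment, 0 of 55 genes had an adjusted p under 0.05, where 7.77% of all genes did (903 of 11625, made up of 3.01% brighter in fetal liver and 4.76% brighter in marrow). At an unadjusted p under 0.05 there were 7 of 55, against 22.7% of all genes. In 7 of 55 genes every fetal liver signal lay above every marrow signal (13.8% of all genes), and in 2 the reverse held (14.2% of all genes). The changes were small: the median absolute log2 change was 0.151, against 0.416 over all genes, and 46 of 55 genes (83.6%) lay under 0.5 in either direction, against 56.8% of all genes. The estimates were also tighter than for most genes, with a median standard error (SE) of 0.193 against 0.380. The 95% interval of the change lay wholly within 2-fold in both directions for 43 of 55 genes (78.2%), against 30.9% of all genes. For those 43 genes a change of 2-fold or more lay outside the interval.

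**Figure D1:**
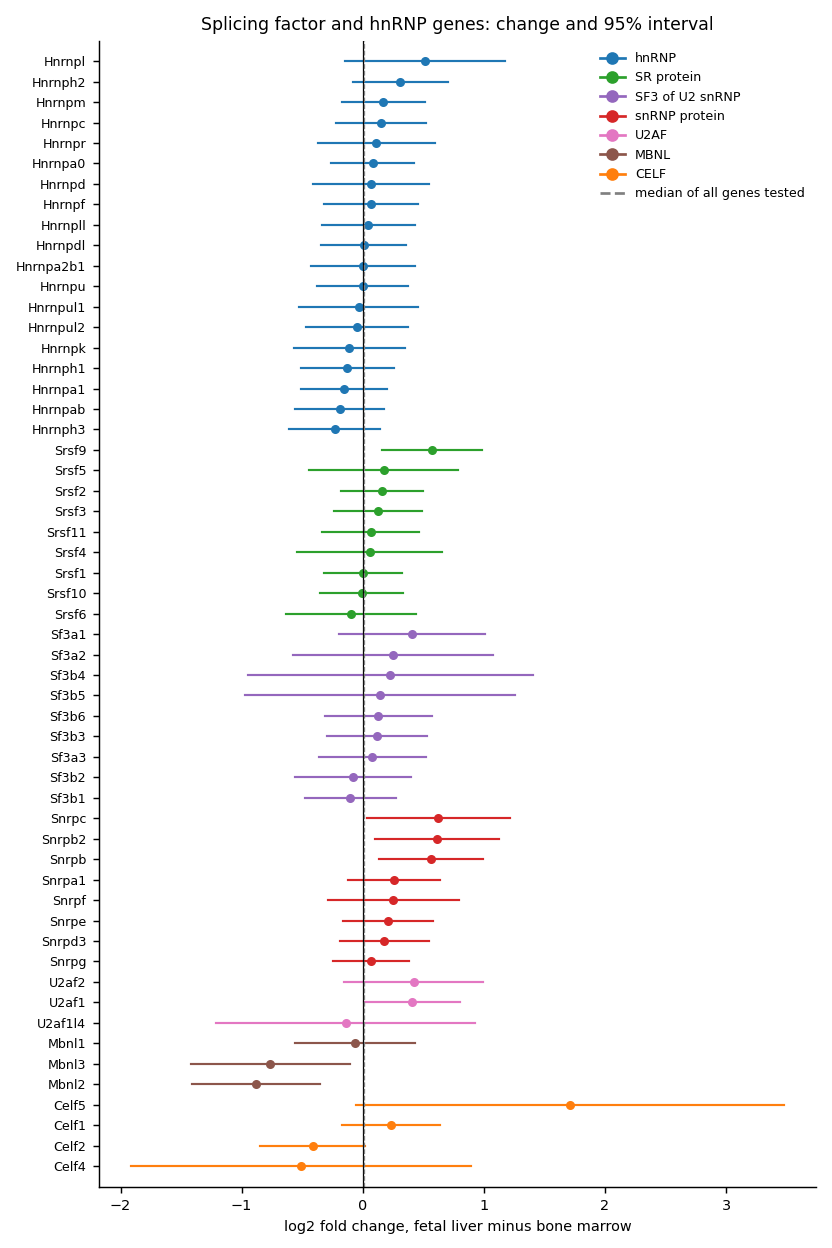
Log2 fold change (fetal liver minus bone marrow, horizontal axis) of the 55 splicing factor and hnRNP genes, with the 95% interval of the limma fit as bars and colours for the 7 families. Most intervals span 0, all 8 snRNP protein genes lie at or to the right of 0.069, and Mbnl2 and Mbnl3 lie at -0.88 and -0.76.

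The hnRNP genes differed little between the tissues on their brightest probe sets. Of 19 tested, 18 had an absolute log2 change under 0.5 and 18 an interval within 2-fold, none reached an unadjusted p of 0.05, and their median change was 0.0063 (range -0.23 to 0.51). Hnrnpa1, which favours exon skipping and shuttles mRNA to the cytoplasm, had signals of 17136, 17415 and 16417 in marrow and 18976, 13593 and 13785 in fetal liver, in the order of replicates 1, 2 and 3. The fetal liver arrays lay on both sides of the marrow arrays, and the log2 change was -0.15 ± 0.16 (SE, 3 arrays a tissue; limma adjusted p = 0.639). Hnrnpa2b1, a close relative, had a change of 0.0029 ± 0.19, with signals of 25409.6, 17993 and 18866 in marrow and 26357, 18644 and 17658 in fetal liver. In both tissues it was replicate 1 that stood highest. Hnrnpu, a scaffold protein of nuclear RNA and chromatin, had a change of 0.0014 ± 0.17, and Hnrnpf, which binds G-rich runs, of 0.067 ± 0.18. Hnrnpk, which binds C-rich RNA, had a change of -0.11 ± 0.21, and Hnrnpc, which binds uridine tracts and keeps cryptic exons silent, of 0.15 ± 0.17. Hnrnpab, a factor of mRNA transport and stability, had signals of 28644, 21512 and 32971 in marrow and 22957, 24897 and 23856 in fetal liver, a change of -0.19 ± 0.17 within the spread of the marrow arrays. Dimmer probe sets of 2 of these genes departed from the brightest. For Hnrnpu, 1434390_at had marrow signals of 889, 1150.3 and 588 against 299.9, 503 and 269 (-1.29 ± 0.37, adjusted p = 0.0730), and for Hnrnpab 1459880_at had 2249.95, 1469 and 1462 against 1298, 739 and 598 (-1.02 ± 0.33, adjusted p = 0.103). Neither passed, although the groups did not overlap. In a limma fit of log2 ratios to the brightest Hnrnpab probe set, 1459880_at moved by -0.83 ± 0.38 (adjusted p = 0.673). The ratios of the other dimmer Hnrnpab probe sets moved the other way, by 0.020 to 0.35 (adjusted p from 0.617 to 0.996). Hnrnpl, which binds CA repeats, had the largest estimate of the family (0.51 ± 0.30, adjusted p = 0.348). Its marrow signals of 3152, 1752 and 3762 overlapped those of fetal liver (2948, 4279 and 4789.7).

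Among the 9 SR protein genes, 9 intervals lay within 2-fold and the median change was 0.065. Srsf2, which binds exonic enhancers, had signals of 8799, 7552 and 8287 in marrow and 9925, 9094 and 8510.0 in fetal liver. The groups overlapped, and the 95% interval of the fold ran from 0.884 to 1.41. The founding family member Srsf1 had a change of 0.0043 ± 0.15 and Srsf3, the smallest SR protein, of 0.12 ± 0.16. Srsf9, a short SR protein, was the exception in spread: marrow signals of 4688, 5127 and 5294 all lay below the fetal liver signals of 6419, 6938 and 9399.7. Its change of 0.57 ± 0.19 (fold interval 1.12 to 1.98) had an adjusted p of 0.0923 and did not pass.

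SF3A and SF3B are the parts of the U2 snRNP that bind at the branch point, and SF3B leaves the spliceosome before the first cut. Their 9 genes had changes from -0.10 to 0.41, with a median of 0.13, and 5 intervals within 2-fold. Sf3b1, the scaffold that clamps the branch point helix, had signals of 11410.3, 11052 and 9909 in marrow and 12261, 8952 and 9203 in fetal liver. Groups overlapped, and the change of -0.10 ± 0.17 gave a fold interval of 0.719 to 1.21. The other 4 intervals were wider. Sf3b5, a small SF3B subunit, had fetal liver signals of 464, 1988 and 2038 (change 0.14 ± 0.50), and Sf3b4 had 92.0, 296 and 248 (0.23 ± 0.53). In Sf3a1 the fetal liver signals were 2343, 1282 and 1487 (0.41 ± 0.27), so that replicate 1 was low in the first 2 genes and high in the third. Sf3a2 varied in both tissues, with 3144, 4664 and 1704 in marrow and 5393, 3118 and 2504 in fetal liver (0.25 ± 0.37).

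Both subunits of U2AF were brighter on every fetal liver array. U2af1, the small subunit that reads the AG at the intron end, had signals of 3286, 3767 and 3375 in marrow and 4005, 4984 and 4878 in fetal liver. The groups did not overlap, and the change of 0.41 ± 0.18 had an adjusted p of 0.207. U2af2, the large subunit that binds the pyrimidine tract, had 624, 834 and 668 in marrow and 953, 923 and 952 in fetal liver (log2 change 0.42 ± 0.26, adjusted p = 0.378). Neither change passed the test. U2af1l4, a paralogue of U2af1, had overlapping groups and a change of -0.14 ± 0.48.

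No snRNP protein gene tested had a negative estimate on its brightest probe set. Snrpa, Snrpd1 and Snrpd2 were not among the genes tested. All 8 were positive, from 0.069 to 0.62 with a median of 0.26, where the median of all genes was 0.0065; 7 of 8 were positive without bone marrow replicate 2 and without fetal liver replicate 1, and all 8 under quantile normalization. None passed the test, and 3 had an unadjusted p under 0.05. Snrpb encodes the SmB and SmB' proteins of the Sm ring, which encircles spliceosomal snRNAs. Its signals were 2577, 3550.3 and 2946 in marrow and 3982, 4506 and 4870.3 in fetal liver, with no overlap (0.57 ± 0.19, adjusted p = 0.108). Snrpb2 encodes the U2 protein B'', and had 2238, 1528 and 2509 in marrow against 3547, 2803 and 3095 in fetal liver, also with no overlap (0.61 ± 0.23, adjusted p = 0.144). Snrpc encodes a U1 protein that helps to recognise the intron start. Its signals of 1476, 1025 and 855 in marrow overlapped those of 1413, 1853 and 1815 in fetal liver (log2 change 0.62 ± 0.27, adjusted p = 0.194). Snrpa1, the partner of Snrpb2 in U2, had 8438, 7899 and 8605 in marrow and 12301, 9239 and 8686 in fetal liver (0.26 ± 0.17). Its groups were separate by a small margin, with replicate 1 far above the other 2 fetal liver arrays. The Sm ring gene Snrpg had a change of 0.069 ± 0.14.

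**Figure D2:**
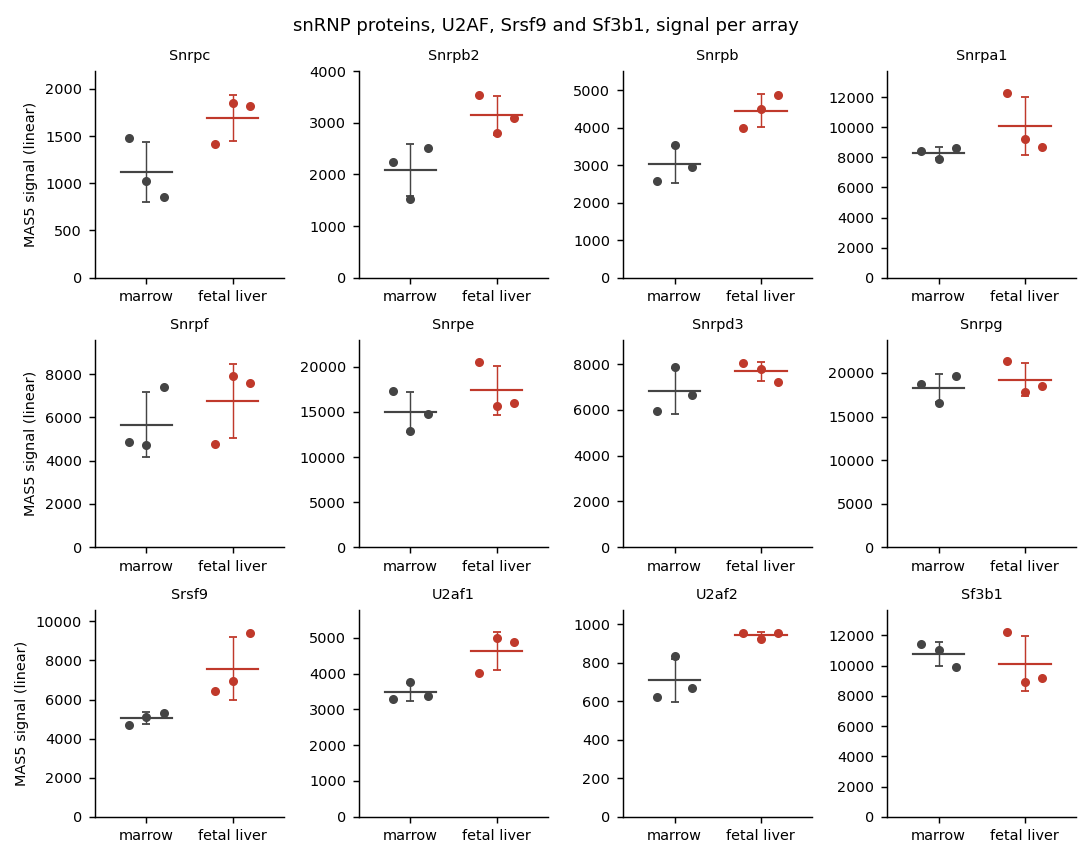
MAS5 signal (linear, vertical axis from 0) on each array for the 8 snRNP protein genes, Srsf9, U2af1, U2af2 and Sf3b1. Points are arrays in the order of replicates 1 to 3, long lines are means and bars are SDs of 3 arrays. In Snrpb, Snrpb2, Srsf9, U2af1, U2af2 and, by a small margin, Snrpa1 all fetal liver points lie above all marrow points, while Sf3b1 overlaps.

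Of the 55 genes, Mbnl2 and Mbnl3 had the largest estimates toward marrow. Mbnl1 was also negative, but turned positive without bone marrow replicates 2 or 3 and under median centring, which raises the change of every gene by the same amount. Mbnl2 had signals of 2365, 2764 and 2074 in marrow and 1595, 1030.5 and 1321 in fetal liver. Every marrow array was brighter, the change was -0.88 ± 0.24 (fold interval 0.377 to 0.785), and the adjusted p of 0.0505 missed the threshold. Across 20 settings Mbnl2 stayed negative, from -1.03 to -0.63, and passed in 6, with adjusted p from 0.0431 to 0.208. One of the 6 was the fit without fetal liver replicate 1, at an adjusted p of 0.0499. Mbnl3 had signals of 705, 841 and 890.1 in marrow and 482, 581 and 381 in fetal liver, again without overlap (-0.76 ± 0.30, adjusted p = 0.153). The other 4 kept probe sets of Mbnl2 and the other 2 of Mbnl3 also had negative changes.

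Mbnl1 gave different values on its 3 kept probe sets. The brightest, 1416904_at, had signals of 2676, 4013 and 4529 in marrow and 3196, 3584 and 3715 in fetal liver, a change of -0.064 ± 0.22 with overlapping groups. Probe set 1457924_at had 3603, 3256 and 4877 in marrow and 937, 1022 and 990.0 in fetal liver. All marrow signals lay far above all fetal liver signals, and the change was -1.97 ± 0.23. In the limma fit over 22408 probe sets its adjusted p was 8.02e-04, and it passed in all 18 settings run on probe sets, between -2.09 and -1.72. The third, 1440315_at, had 1642, 1210.2 and 1133 against 1511, 827 and 578 (-0.55 ± 0.35, adjusted p = 0.434). When the difference between probe sets was itself fitted, as the log2 ratio of 1457924_at to 1416904_at within each array, it moved by -1.90 ± 0.26 with an adjusted p of 0.0651 over 10783 such ratios. That test called 0.00927% of ratios (1 of 10783, a probe set of Malat1). When 1 array was left out, the change of this ratio ranged from -2.09 to -1.73, with adjusted p from 0.0761 to 0.323. Which part of the Mbnl1 transcript each probe set reads was not examined here, so a change of the gene and a change of one transcript end or form cannot be told apart. The granulocyte markers move in the same direction as this probe set, and their part in it was not tested.

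**Figure D3:**
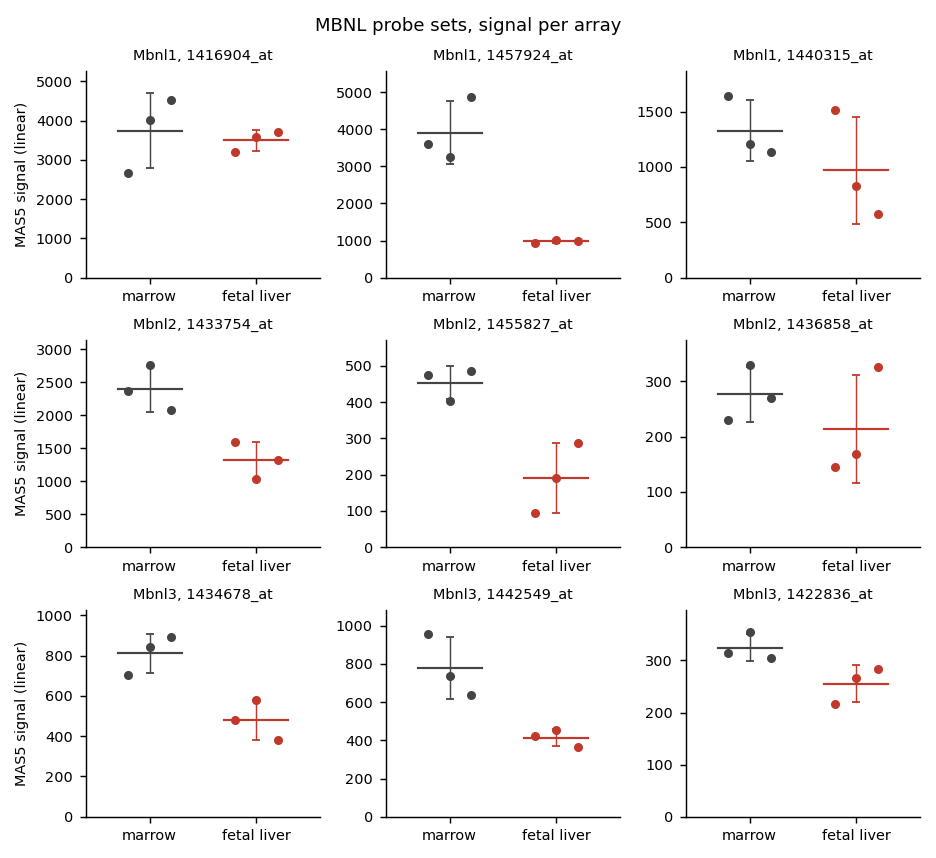
MAS5 signal (linear, vertical axis from 0) on each array for the 3 brightest kept probe sets of Mbnl1, Mbnl2 and Mbnl3, with means (long lines) and SDs (bars) of 3 arrays a tissue. Mbnl1 1457924_at lies at 3256 or above in marrow and at 1022 or below in fetal liver, whereas Mbnl1 1416904_at overlaps between the tissues.

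CELF genes showed no shared direction. Celf2, which is expressed across blood and brain, had signals of 6442, 8212 and 8137 in marrow and 6568, 4499.9 and 6152 in fetal liver (log2 change -0.41 ± 0.19, adjusted p = 0.241), and its other 4 kept probe sets were negative too. Celf1, the partner that opposes MBNL1 on many muscle exons, had 3167, 3069 and 2605 in marrow and 3686, 3486 and 3209 in fetal liver. Its groups were separate, the change was 0.23 ± 0.18 and the adjusted p was 0.503. Celf5 had the largest estimate of all 55 genes (1.71 ± 0.80, adjusted p = 0.237) on dim signals of 11.9, 4.83 and 66.0 in marrow and 70.2, 56.5 and 60.1 in fetal liver. It was above background on 1 marrow array, whose signal overlapped fetal liver. Celf4 was dim as well, with 86.8, 69.3 and 87.3 against 54.9, 126 and 24.3 (-0.51 ± 0.63).

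Across the 159 kept probe sets of the 55 genes, 1 was higher in marrow, the Mbnl1 probe set above (3.44% of all probe sets were), and 1 was higher in fetal liver (2.06% of all probe sets were). At an unadjusted p under 0.05 there were 19 of 159, against 20.3% of all probe sets. The probe set higher in fetal liver was 1422885_at of Snrpd3, a Sm ring protein, with signals of 79.5, 211 and 192 in marrow and 594, 447 and 483 in fetal liver. Groups were far apart (1.75 ± 0.45), but the adjusted p was 0.0478 and the call was lost in 10 of 18 settings, among them those without bone marrow replicates 1 or 3 (adjusted p = 0.0841 and 0.0621) and without any 1 fetal liver array. The brightest Snrpd3 probe set had 5941, 7889 and 6648 in marrow and 8049, 7795 and 7216 in fetal liver, a change of 0.18 ± 0.17 with overlap. The difference between these 2 probe sets was 1.57 ± 0.46 with an adjusted p of 0.536 in the fit of ratios, and did not pass. The third Snrpd3 probe set, 1449629_s_at, had an estimate of the other sign (-0.53 ± 0.55). The other 2 kept probe sets of Snrpa1 had the sign of its main probe set: 0.92 ± 0.25 on 1417352_s_at (adjusted p = 0.0573) and 0.51 ± 0.19 on 1417353_x_at (0.158). For Snrpb2, the log2 ratio of 1452131_at to the brightest probe set moved by 1.85 ± 0.88 (adjusted p = 0.693 in the fit of ratios). With the mean of its probe sets Snrpb2 had a change of 1.24 and passed (adjusted p = 0.0290).

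Fetal liver replicate 1 stood above the other fetal liver arrays in many of these genes. It was the highest of the 3 in 34 of 55 genes (61.8%), against 39.4% of all genes, and the median excess over the mean of replicates 2 and 3 was 0.238 on the log2 scale, against 0.011 over all genes. Hnrnpd, an AU-rich element binding protein, is an example, with 14683 on replicate 1 and 8737 and 8299 on the other fetal liver arrays, while marrow gave 9061, 10124 and 10081. Srsf4 had 9003 against 4448 and 4677. The Gapdh ratio of the probe set at the 5′ end to that at the 3′ end, a measure of RNA and labelling quality, was 0.109 on this array and 0.449 and 0.432 on replicates 2 and 3, where the marrow arrays had 0.0990, 0.177 and 0.303. The same ratio for Actb was also lowest on this array (0.892). For Actb the tissues did not overlap, with 1.06 to 1.13 in marrow and 0.892 to 1.02 in fetal liver. Its exact permutation p was 0.1, the smallest possible here, and 0.2 after adjustment. For Gapdh the exact permutation p was 0.3. With the Gapdh ratio as a covariate 0 of 55 genes passed, the signs of 12 turned and the median change was 0.14. Without fetal liver replicate 1, 54 of the genes were tested, the signs of 14 turned, 29 were positive where 38 had been, the median change was 0.024, and 1 gene passed, Mbnl2.

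**Figure D4:**
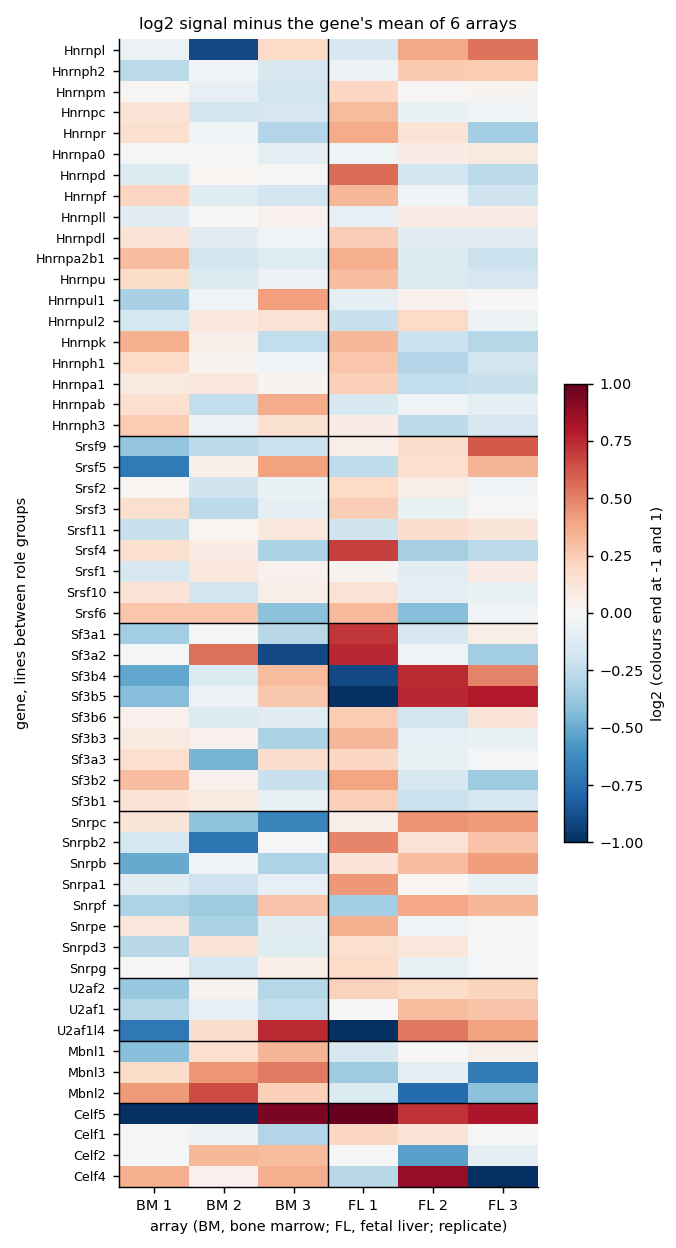
Log2 signal of each of the 55 genes (rows, grouped by family) on each array (columns) minus that gene's mean over the 6 arrays; red is above the mean and blue below, and colours end at -1 and 1. Fetal liver replicate 1 is red in many hnRNP and SF3 rows, with a median of 0.20 over all 55 genes, and the MBNL rows change from red in marrow to blue in fetal liver in Mbnl2 and Mbnl3.

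The level of all changes moved with the scaling of the arrays. The median signal of an array was 77.0 ± 3.05 (mean ± SD, n = 3) for marrow and 64.2 ± 1.34 for fetal liver, although every array had the same trimmed mean of 500 (exact permutation p = 0.1, two-sided, the smallest that 3 against 3 allows; 0.2 after adjustment over 4 array measures). Centring each array on its median moved the median change of all genes from 0.0065 to 0.26 and that of the splicing genes from 0.080 to 0.33, since this scaling adds the same amount to the change of every gene. Quantile normalization gave medians of 0.070 for the splicing genes and 0.091 for all genes, so the splicing genes no longer had the higher one. Under median centring, the splicing genes with a positive change numbered 51 of 55, and 4 passed, where 11.5% of all genes did. These were Srsf9 (0.82), Snrpb (0.82), Snrpb2 (0.86) and U2af1 (0.66), with adjusted p of 0.0214, 0.0274, 0.0342 and 0.0452. The marrow share of all calls was 32.8% under median centring and 61.2% in the fit reported. After quantile normalization it was 57.0%, and 0 splicing genes passed.

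Other parts of the splicing machinery were read from lists of 170 further genes, of which 140 were tested. Of these, 6 were higher in fetal liver (3.01% of all genes were) and 0 were higher in marrow (4.76%), with 26 of 140 (18.6%) at an unadjusted p under 0.05, against 22.7% of all genes. The median change was 0.14. Every fetal liver signal lay above every marrow signal in 29 genes (13.8% of all genes were so) and below in 7 (14.2%). Quantile normalization gave 3 calls in fetal liver and 1 in marrow (Prpf39), and median centring gave 21 and 0, where it called 7.72% of all genes higher in fetal liver. Without a variance trend there were 2 and 0, with the mean of probe sets 6 and 1 (Rbmx), and with the Gapdh covariate 7 and 1 (Dyrk1a). Leaving out 1 array gave between 1 and 6 in fetal liver and at most 1 in marrow (Prpf39 again, without fetal liver replicate 1). A list of further snRNP proteins covered the U5 and tri-snRNP particles together with U1 partners and the minor spliceosome. Of its 27 changes 21 were positive (median 0.27), where 5876 of 11625 were over all genes. Among the larger estimates were the minor spliceosome genes Rnpc3 (1.04 ± 0.43), Snrnp35 (0.84 ± 0.27) and Snrnp25 (0.75 ± 0.25). None of these passed (adjusted p from 0.0865 to 0.182). The largest change of the list in either direction was toward marrow, in Ddx23 (-1.11 ± 0.53, adjusted p = 0.244). Prpf39 was lower in fetal liver too (-0.65 ± 0.20, adjusted p = 0.0759). In both genes every marrow signal lay above every fetal liver signal, and neither passed. The minor spliceosome genes did not share a direction: Snrnp48 (-0.48 ± 0.29) and Pdcd7 (-0.26 ± 0.30) had negative estimates, and Zmat5 a positive one (0.78 ± 0.57). Rnpc3 passed without bone marrow replicate 1 (adjusted p = 0.0197), Snrnp35 without bone marrow replicate 3 (0.0197) and under median centring (0.0230), and Snrnp25 under median centring (0.0266). The 1 gene of the list that rose in fetal liver was Prpf31, a protein that joins U4/U6 to U5, with 1059.7, 969.7 and 855 in marrow and 1968, 1948 and 2090.0 in fetal liver (log2 change 1.06 ± 0.22, adjusted p = 0.0155). Its call was lost without fetal liver replicate 2 (0.0765) or 3 (0.0918) or when its probe sets were averaged (0.48, adjusted p = 0.220).

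The LSm and SMN list, whose proteins build the Sm and LSm rings on snRNAs, had 18 of 20 positive changes (median 0.42). It had 2 calls in fetal liver (3.01% of all genes were called so). Smn1, the core of the SMN complex, had 1034, 920.3 and 1166 in marrow and 2047, 1951 and 1914 in fetal liver (log2 change 0.93 ± 0.22, adjusted p = 0.0289). Wdr77, a partner of the methyltransferase that modifies Sm proteins, had 2465, 2616 and 2666 against 3960.3, 4276 and 3939 (0.65 ± 0.17, adjusted p = 0.0469). In both genes the groups were separate, yet Smn1 passed in 14 of 20 settings and Wdr77 in 10. Smn1 lost its call without any single array other than bone marrow replicate 3 (adjusted p from 0.0551 to 0.123), and Wdr77 without each of the 6 (0.0767 to 0.198).

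Among 28 genes of the PRP19 and catalytic complexes, 21 changes were positive (median 0.14) and Bcas2, a PRP19 complex subunit, passed with 1698, 1657 and 1297 in marrow and 2935, 2557 and 2504 in fetal liver (log2 change 0.79 ± 0.21, adjusted p = 0.0469). It lost the call without each of the 6 arrays (0.0622 to 0.151). Across all 20 settings Bcas2 passed in 9, with an adjusted p of up to 0.543. The list of 52 other splicing regulators had 29 positive changes (median 0.042) and 2 calls in fetal liver, where 3.01% of all genes were called so. Khdrbs3, an RNA-binding protein of the STAR family that regulates alternative exons, had 280.1, 99.6 and 127 in marrow and 808, 751 and 812 in fetal liver. Its groups lay far apart, and its change of 2.35 ± 0.43 (adjusted p = 0.0085) passed in all 20 settings. Fubp1, a single-strand nucleic acid binding protein, had a change of 0.82 ± 0.21 (adjusted p = 0.0379) but 0.12 once its probe sets were averaged (0.818), and lost its call without bone marrow replicates 1 or 2 or fetal liver replicates 2 or 3 (0.0591 to 0.167). Of 5 exon junction complex genes, 3 had positive changes and 0 passed. At an unadjusted p under 0.05 there was 1 (Rbm8a, 0.39 ± 0.16), against 22.7% of all genes.

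The list of SR protein kinases also held Tnpo3, the receptor that carries SR proteins into the nucleus. Of its 9 genes, the 7 with negative estimates were all kinases, and the positive ones were Clk3 (0.046 ± 0.19) and Tnpo3 (0.16 ± 0.22). The median was -0.35, and 5 of 9 were negative without bone marrow replicate 2 and under median centring. None passed, and 2 had an unadjusted p under 0.05, against 22.7% of all genes. Dyrk1a passed with the Gapdh covariate (-0.86, adjusted p = 0.0359), and Srpk3, which was too dim for the filter, was higher in fetal liver when no filter was set (adjusted p = 0.0308). Dyrk1a had 2297, 2826 and 2432 in marrow and 1198, 1789 and 1579 in fetal liver (log2 change -0.74 ± 0.23, adjusted p = 0.0764). Clk1, a nuclear SR kinase, had 3635, 3817 and 3718 against 3332, 2474 and 2183 (-0.51 ± 0.21, adjusted p = 0.172). In both genes and in Srpk2 every marrow signal lay above every fetal liver signal.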

How the data were processed

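Gene expression was measured in 3 bone marrow and 3 fetal liver MkP samples, 1 array each. The deposited table gives 1 linear intensity per probe set and array. MAS5 was the authors' tool, per the submitters' processing notes, and its version and settings are, in the sources used here, not given. No genome build is named for the values, and no coordinates are given. The table held 45101 probe sets, 64 of them array controls. The number of arrays limits the precision.

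An offset of 2.87 (the 10th percentile of all signals) was added before taking log2, so folds of dim genes are understated. Probe sets with a mean above the 40th percentile were kept (27022 of 45037), of which 22408 had 1 symbol in the platform annotation. Each gene was represented by its brightest kept probe set. The RefSeq gene table of GRCm38.p6 held the symbols of all 58 genes. Tissues were compared in limma 3.58.1 (R 4.3.3), using lmFit and an intensity-dependent eBayes prior, and p-values were adjusted by Benjamini-Hochberg over all genes or probe sets, with a threshold of 0.05. Array measures had two-sided exact permutation tests (scipy 1.17.1). Figures were drawn with matplotlib 3.10.9.

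The members, the gene lists and the tests were chosen with earlier results of these data known. Genes were named by rule: the 4 with the smallest p where none passed, the 6 of highest mean signal, a fixed set of 14 core factors, and up to 3 genes a list that passed. Snrpc, Snrpd3, Snrpa1, Celf4, Celf5, Sf3a1, Sf3b4, Sf3b5, Hnrnpl, Hnrnpd, Srsf4, U2af1l4, Sf3a2, the kinases, Tnpo3, Prpf39, Ddx23, Rnpc3, Snrnp25, Snrnp35, Snrnp48, Pdcd7, Zmat5, Rbm8a, Rbmx and Malat1 were added after their values were seen. Alternatives covered the offset, scaling, filter, background floor, variance model, choice of probe sets, replicate block and each array left out. A Gapdh ratio covariate and the fit of ratios between probe sets were chosen after seeing the data.

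The comparison of fetal liver with bone marrow was tested on simulated data for 11625 genes. Of genes given a 2-fold change it called 12 of 67, at 4-fold 46 of 67 and at 16-fold 63 of 66, beside 10 false calls among the rest, where 200 genes were changed. With none changed it called 0. Most 2-fold changes were missed in this simulation. Its changed genes were drawn from all genes, with a median SE of 0.380 against 0.193 for the splicing genes. It changed 200 genes, where 903 were called in the data. The rate for the splicing genes alone was not simulated.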

Additional observations from a re-analysis of the deposited data

How the results depend on the processing

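Of the 55 genes, 0 were called in either direction in the fit reported. Higher in fetal liver, the count was 4 under median centring, 1 with the mean of a gene's probe sets (Snrpb2) and 1 with the replicate number as a block (Srsf9, adjusted p = 0.0373), and 0 when any array was left out. Higher in marrow, it was 1 with an offset of 16, a filter at the 60th percentile, a floor at the bacterial controls, without x and s probe sets and with the replicate block (Mbnl2 in each), 1 with the mean of probe sets (Mbnl1, -0.86), and 0 to 1 when an array was left out. Over all genes, 350.0 calls in fetal liver became 897 under median centring, 166 without a variance trend and 102 to 320 without 1 array; 553 calls in marrow became 317 to 451. For probe sets of the 55 genes, the 1 call in fetal liver became 0 with an offset of 1, no filter, no variance trend or the Gapdh covariate, 2 with the floor or the replicate block, 8 under median centring, and 0 to 2 without 1 array. The 1 call in marrow became 3 with the replicate block and 1 to 2 without 1 array. The cause was not tested. The Mbnl1 and Snrpd3 probe sets called in the fit reported did not change sign in any setting. Signs of genes turned in up to 14 of 55 genes (without fetal liver replicate 1). Mbnl1, which was called with the mean of its probe sets, changed sign in 3 of 20 settings. Same-numbered samples had correlations of deviations of 0.150, -0.0225 and 0.0809. With 3 arrays a tissue, these values cannot settle whether the numbers pair the samples. With the block 522 genes were called in fetal liver and 688 in marrow. The ratio between the Mbnl1 probe sets then had an adjusted p of 0.0298, which is past the threshold. Among the 140 other splicing genes the block gave 7 calls in fetal liver and 2 in marrow (Dyrk1a, adjusted p = 0.0451, and Prpf39). Samples with number 1 were the only same-numbered pair that correlated best with each other. Celf5, which passed the filter on dim probe sets in 15 of 20 settings, is limited by signal over background.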
